A study of Homo sapiens with 6 samples.

Results

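The CDK inhibitor genes described here are 7 genes chosen by name, CDKN1A, CDKN1B, CDKN2A, CDKN2B, CDKN2C, CDKN2D and CDKN3, out of 19974 protein-coding RefSeq genes on chromosomes 1 to 22 and X of GRCh38. All 7 were found in the annotation. R-loops, stretches where RNA is annealed to the template DNA and the opposite DNA strand is left single, were mapped by MapR in IMR90 cells, a line of human embryonic lung fibroblasts of wild-type genotype grown at 2% oxygen. In MapR, a fusion of RNase H and micrococcal nuclease (RH-MNase) binds RNA-DNA hybrids and cuts out the chromatin around them. The peak lists came from senescent cells with ectopic Ras, from quiescent cells under starvation and from proliferating cells with a control vector. Each state had 1 RH-MNase library, so differences below are between single libraries and carry no test. The sources used here do not give the Ras construct, the number of cultures behind a library or the length of starvation. The lists hold positions and scores of peaks and no expression values, so the cell type and the state were taken from the labels and not checked against markers.

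CDK inhibitors hold back the cyclin-dependent kinases that drive the cell cycle, and cells use them to stop dividing. The INK4 proteins, made from CDKN2A, CDKN2B, CDKN2C and CDKN2D, bind CDK4 and CDK6 and keep cyclin D from activating them, so that the retinoblastoma protein stays active. The CIP and KIP proteins, among them p21 from CDKN1A and p27 from CDKN1B, bind whole cyclin and CDK complexes, CDK2 complexes in particular. CDKN2A also encodes ARF from a separate first exon and another reading frame. ARF blocks MDM2 and so stabilises p53, which in turn activates CDKN1A. In fibroblasts that enter Ras-induced senescence, p16 from CDKN2A and p21 are the best known effectors of the arrest. CDKN3 stands apart: it encodes a phosphatase that removes an activating phosphate from CDK2, and it is a gene of cycling cells.

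The senescent list held 85564 peaks over 54.1 Mb, the quiescent list 9736 peaks over 4.12 Mb and the proliferating list 101802 peaks over 85.4 Mb. The read depth is unknown. The score is the authors' whole number per peak, with no stated scale, and is used here only to place a peak within its own list. That place is given as the percentage of peaks in the list with an equal or higher score, so that a small percentage is a high place. Lists of such different lengths do not give a change in place from one state to another. A locus is a gene with 1000 bp on each side, and its cover is the percentage of its bases under peaks.

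In senescent and in proliferating cells each of the 7 genes had a peak over a start, and the sequences before the starts differed widely. The 250 bases before the start position are shown for CDKN1A, for both starts of CDKN2A, for CDKN2B and for the 3 starts of CDKN2C, because the peaks described below turn on these positions. The sequences are from RefSeq (GRCh38.p14), written 5′ to 3′ on the strand of the gene. Capitals mark the GC box GGGCGG or its complement CCGCCC, and overlapping matches run together.
CDKN1A, chr6:36678464-36678713, plus strand: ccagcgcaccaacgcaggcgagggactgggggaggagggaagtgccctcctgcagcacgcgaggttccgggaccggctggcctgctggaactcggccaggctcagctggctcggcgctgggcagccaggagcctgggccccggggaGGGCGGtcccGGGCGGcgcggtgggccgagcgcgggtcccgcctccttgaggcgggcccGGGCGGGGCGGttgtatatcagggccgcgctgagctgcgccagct
CDKN2A start 1 (ARF), chr9:21995325-21995574, minus strand: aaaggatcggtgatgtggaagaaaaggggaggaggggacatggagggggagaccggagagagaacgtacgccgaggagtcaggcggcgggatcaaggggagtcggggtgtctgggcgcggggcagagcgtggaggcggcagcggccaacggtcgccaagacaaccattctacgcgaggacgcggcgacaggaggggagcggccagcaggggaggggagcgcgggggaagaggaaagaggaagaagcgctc
CDKN2A start 2 (p16), chr9:21974858-21975107, minus strand: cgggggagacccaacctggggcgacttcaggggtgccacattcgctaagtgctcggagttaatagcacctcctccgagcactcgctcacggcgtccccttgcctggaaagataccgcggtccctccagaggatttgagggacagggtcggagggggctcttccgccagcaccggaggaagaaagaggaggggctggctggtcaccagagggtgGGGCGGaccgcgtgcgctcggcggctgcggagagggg
CDKN2B, chr9:22009306-22009555, minus strand: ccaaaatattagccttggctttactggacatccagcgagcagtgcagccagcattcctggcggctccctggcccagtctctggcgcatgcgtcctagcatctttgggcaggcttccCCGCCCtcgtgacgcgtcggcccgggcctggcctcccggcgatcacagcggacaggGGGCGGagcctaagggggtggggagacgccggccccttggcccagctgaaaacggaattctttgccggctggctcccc
CDKN2C start 1, chr1:50960495-50960744, plus strand: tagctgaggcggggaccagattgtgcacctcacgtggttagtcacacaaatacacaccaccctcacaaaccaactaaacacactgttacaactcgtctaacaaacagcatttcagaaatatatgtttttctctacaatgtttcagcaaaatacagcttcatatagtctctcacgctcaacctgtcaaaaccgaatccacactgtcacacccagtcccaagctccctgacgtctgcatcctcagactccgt
CDKN2C start 2, chr1:50968456-50968705, plus strand: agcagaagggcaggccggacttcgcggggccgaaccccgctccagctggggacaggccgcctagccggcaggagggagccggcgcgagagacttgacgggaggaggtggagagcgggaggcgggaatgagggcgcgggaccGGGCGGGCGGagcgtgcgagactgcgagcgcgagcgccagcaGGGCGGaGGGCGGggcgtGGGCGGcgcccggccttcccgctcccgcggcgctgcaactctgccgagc
CDKN2C start 3, chr1:50969995-50970244, plus strand: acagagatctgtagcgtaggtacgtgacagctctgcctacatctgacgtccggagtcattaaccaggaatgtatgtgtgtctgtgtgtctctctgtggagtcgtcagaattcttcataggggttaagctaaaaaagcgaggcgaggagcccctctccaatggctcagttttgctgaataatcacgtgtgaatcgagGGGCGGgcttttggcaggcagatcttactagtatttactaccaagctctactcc

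A GC box was found in these 250 bases at 7 of the 10 start positions of the 7 genes, against 42.7% of 34961 promoters in the same table. The ARF promoter had none on either strand. Its sequence was rich in G and poor in C: over the table's 300 bases, 250 before and 50 after the start, the GC skew, (G-C)/(G+C), was 0.42, above 99.2% of all promoters. The p16 promoter had a skew of 0.22, above 91.1%, and CDKN2C start 2 one of 0.20, above 89.1%. CDKN2C start 1 stood at the other end, with a skew of -0.27, above only 3.39% of promoters, and a GC content of 46.3%. The 10 starts had a median skew of 0.062 and a median GC content of 66.5%. Over 22132 start positions of protein-coding genes, the closer background, the medians were 0.02 and 62.3%. Over all promoters of the table they were 0.012 and 58.7%. The motif TATAAA was in none of the 10 windows, in 9.46% of the protein-coding starts and in 11.5% of all promoters. GGGG was in all 10, in 93.5% and in 89.7%, in the same order. Counted over the same 300 bases, the GC box was in 7 of the 10 and in 56.3% of the protein-coding starts.

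Start positions of the CDK inhibitor genes were mostly under a peak in senescent and proliferating cells, but not in quiescent cells. In senescent cells 9 of the 10 lay under one, in quiescent cells 1 and in proliferating cells 9. Over all 22132 start positions of protein-coding genes the shares were 40.7% in senescent, 10.3% in quiescent and 64.2% in proliferating cells. The exception in both senescent and proliferating cells was CDKN2C start 1. Within 1000 bp of a start, the median cover over the 10 starts was 68.2% in senescent, 4.42% in quiescent and 98.0% in proliferating cells, beside 30.2%, 0.0% and 63.1% over all starts in the same order of states. GC-rich starts carried peaks more often throughout: of the 9252 starts with at least 65% GC, 50.7% were under a senescent, 14.5% under a quiescent and 82.0% under a proliferating peak, and of the 2753 starts with less than 45% GC the shares were 4.69%, 0.254% and 13.2%. How far base composition sets the peaks over these genes was not tested.

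**Figure D1:**
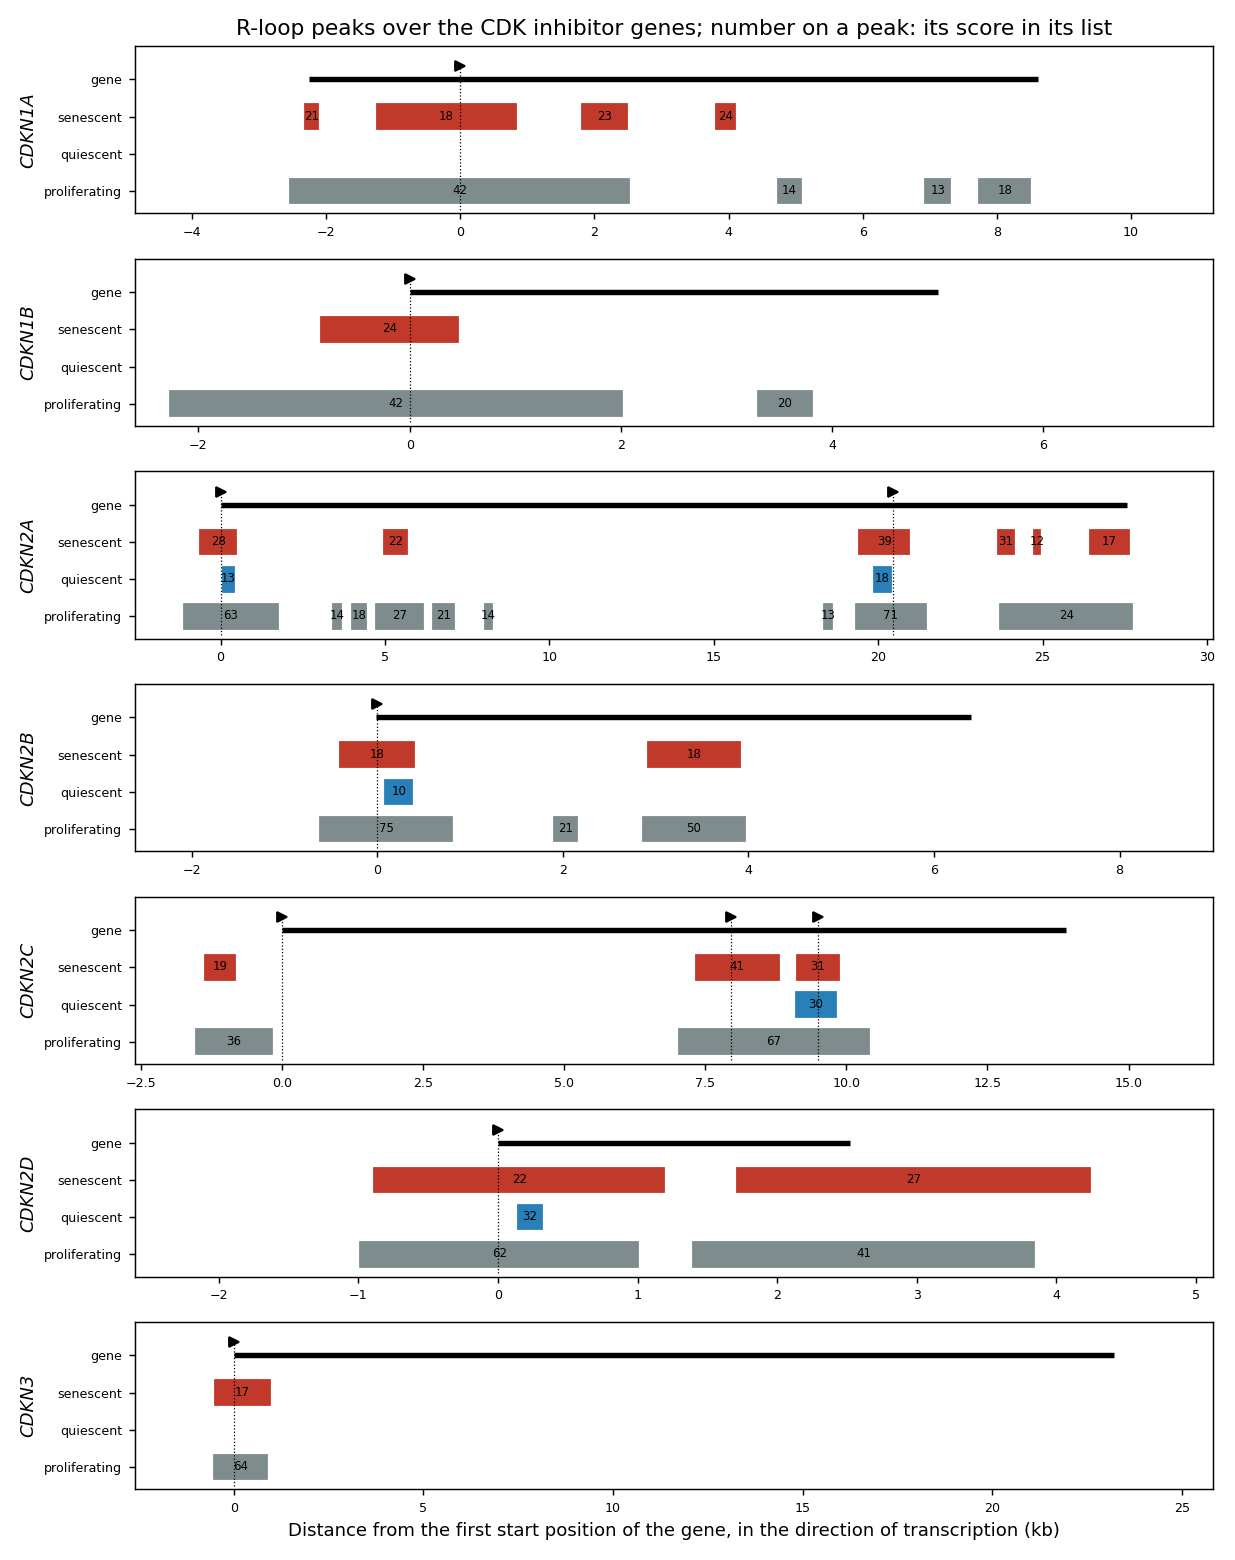
Peaks over each gene in senescent, quiescent and proliferating cells, against the distance in kb from the first start position in the direction of transcription. Black bars are genes, arrowheads and dotted lines start positions, coloured boxes peaks, and numbers on them scores within their own list. In proliferating cells the start positions of CDKN1A and CDKN1B lie under single wide peaks of 5061 and 4275 bp, where the senescent peaks are shorter. Parts of both genes lie outside these peaks.

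All 7 loci carried a peak in senescent cells, 4 in quiescent cells and 7 in proliferating cells. Over all protein-coding genes a peak was present in 79.9% in senescent, 34.2% in quiescent and 83.0% in proliferating cells. A peak lay within 1000 bp of an annotated gene end in 7, 3 and 7 of them, beside 69.9%, 27.5% and 75.5% of all genes in the same order of states. The cover was lower in senescent than in proliferating cells for 6 of the 7 and higher for CDKN3, beside 84.5% of all covered genes lower and 15.5% higher. It was at most 0.5 of the proliferating value, the threshold of 2-fold, for 3 of the 7, CDKN1A, CDKN1B and CDKN2A, beside 35.8% of all covered genes, and 2-fold higher for none, beside 5.12%. These shares are near the background. With the proliferating list cut by score until it covered as many bases as the senescent one, CDKN1B alone was 2-fold lower, beside 19.7% of all covered genes. The median cover over the 7 genes was 18.5% in senescent, 2.91% in quiescent and 40.8% in proliferating cells, against 3.16%, 0.0% and 5.83% over all protein-coding genes. The median ratio of senescent to proliferating cover was 0.568 over the 7 genes and 0.598 over the 16584 genes with proliferating cover.

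Since the medians above take no account of gene length, each gene was also set among the 1353 to 2543 protein-coding genes of like length. CDKN2D had more cover than 99.2% of them in senescent, 79.6% in quiescent and 97.0% in proliferating cells, and CDKN2A more than 92.3%, 93.7% and 97.8% in the same order of states. CDKN1A stood above 89.0% in senescent and 96.0% in proliferating cells, and CDKN1B above 62.5% and 86.0%. CDKN2B stood above 73.6% in senescent, 79.9% in quiescent and 74.3% in proliferating cells, and CDKN2C above 78.4%, 91.1% and 84.1%. CDKN3 was near the middle in senescent cells, above 56.4%, and in the lower part in proliferating cells, above 32.4%, where genes of its length had a median cover of 8.23%.

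**Figure D2:**
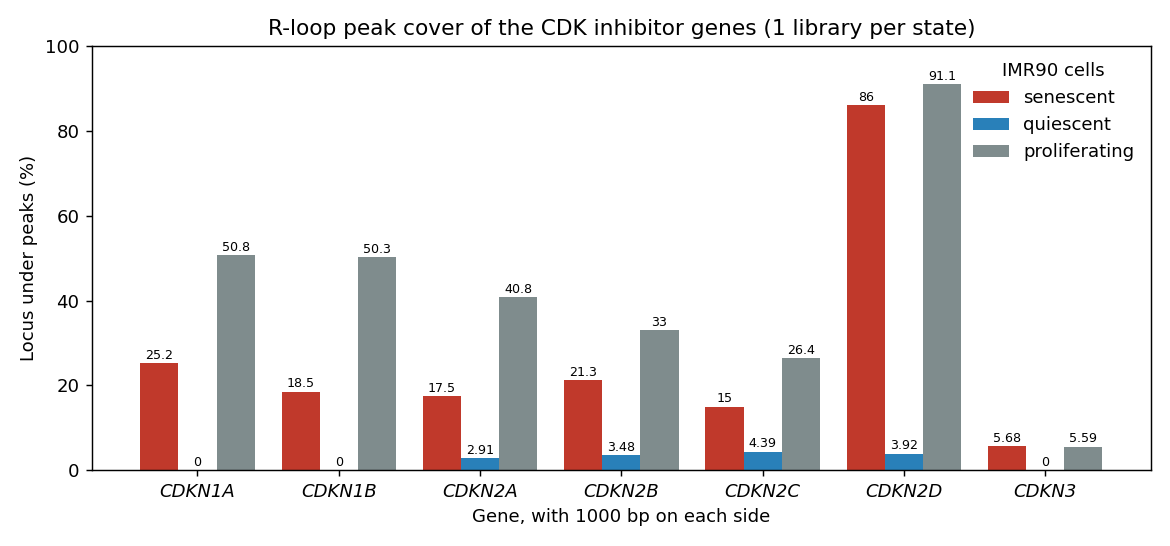
Percentage of each locus, the gene with 1000 bp on each side, under peaks in senescent, quiescent and proliferating cells, 1 library per state. Bars start at 0; the senescent bar is below the proliferating bar for all genes but CDKN3, where the values are 5.68% and 5.59%.

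Of the CIP and KIP genes, CDKN1A (gene ID 1026, chromosome 6, 36676463 to 36687332, plus strand), the p53 target that encodes p21, had 25.2% of its locus under 4 peaks in senescent cells, no peak in quiescent cells and 50.8% under 4 peaks in proliferating cells. The ratio of senescent to proliferating cover was 0.496, just past the 2-fold threshold. In proliferating cells a single peak of 5061 bp, from 36676173 to 36681233, ran from 2541 bp before the start to 2519 bp after it. The start position used is 36678714, and the annotated gene begins before it, at 36676463. Most of the part before the start thus lay within the annotated gene. In senescent cells 3 separate peaks of 195, 2078 and 678 bp stood within the bounds of that proliferating peak. The one of 195 bp lay over the annotated beginning of the gene. The one over the start position reached from 1245 bp before to 832 bp after it. That senescent peak had a score of 18, matched or passed by 57.0% of its list, while 16.2% of the proliferating list matched or passed the score of 42.

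The rest of CDKN1A differed as well. A senescent peak of 288 bp from 36682521 to 36682808 had no proliferating counterpart, and it was the only senescent peak over the 7 genes of which this was true. It had the highest score of the 4 senescent peaks at CDKN1A, 24. Toward the far end of the gene 3 proliferating peaks of 333, 378 and 763 bp, with scores of 14, 13 and 18, had no senescent counterpart. The lncRNA gene DINOL, which lies across the CDKN1A promoter on the other strand, shared the peak over the start in both states. As peaks carry no strand, signal from DINOL and from CDKN1A cannot be told apart.

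CDKN1B (gene ID 1027, chromosome 12, 12717368 to 12722369, plus strand), which encodes p27, an inhibitor raised in resting cells, had 18.5% of its locus covered in senescent cells, none in quiescent cells and 50.3% in proliferating cells. The ratio of senescent to proliferating cover, 0.368, was the lowest of the 7. The only senescent peak, of 1297 bp from 12716528 to 12717824, lay over the start, reaching from 840 bp before to 456 bp after it, and 28.3% of its list matched or passed its score of 24. The proliferating peak over the start was 4275 bp wide, from 12715102 to 12719376, and extended 2266 bp before and 2008 bp after it. A second proliferating peak of 513 bp inside the gene had no senescent counterpart. Both peaks over the start also overlapped the neighbouring gene GPR19, whose annotated span stops at 12717246.

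With flanks of 1000 bp the INK4 genes were the members with quiescent peaks: CDKN2A had 2 and CDKN2B, CDKN2C and CDKN2D 1 each. This depended on the flank, as with 3000 bp CDKN1B also had quiescent cover, 3.18%. It was no trait of the INK4 family: CDKN1C, a CIP and KIP gene outside the members, had 6.08% with flanks of 1000 bp. With peaks reaching the median score only, CDKN2A and CDKN2B had no quiescent cover. CDKN2A (gene ID 1029, chromosome 9, 21967752 to 21995324, minus strand) had 17.5% of its locus covered in senescent cells by 6 peaks, 2.91% in quiescent cells by 2 and 40.8% in proliferating cells by 9. Peaks lay at the ARF start, at the p16 start and over the far end of the gene, and in proliferating cells 6 of the 9 lay between the starts.

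At the p16 start, at 21974857, the senescent peak spanned 1534 bp from 21974371 to 21975904, with 1047 bp before the start and 486 bp after it. Its score of 39 was matched or passed by 3.43% of the senescent list. The quiescent peak, 502 bp from 21974944 to 21975445, ended 87 bp before the start, and 62.6% of its list matched or passed its score of 18. The proliferating peak spanned 2149 bp from 21973862 to 21976010, with 1153 bp before the start and 995 bp after it, and 2.15% of its list matched or passed its score of 71. This p16 peak was thus high in the senescent and in the proliferating list, beside medians of 24.8% and 11.4% for peaks over a start of any protein-coding gene.

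At the ARF start, at 21995324, the senescent peak spanned 1091 bp and the proliferating peak 2847 bp, and the quiescent peak of 360 bp began 61 bp after the start. The share of the list at or above its score was 16.5% for the senescent, 92.4% for the quiescent and 4.09% for the proliferating peak. All 3 overlapped CDKN2B-AS1, the lncRNA also called ANRIL, which starts within the same promoter and runs the other way. Between the ARF and p16 starts, clear of both, lay 1 senescent peak, of 690 bp. The 2 quiescent peaks near the starts, described above, were the only quiescent ones between them. The 6 proliferating peaks in the same stretch were 207 to 1409 bp wide, and 1 of them, the widest, overlapped the senescent one. An uncharacterised lncRNA gene, LOC124902130, shares much of this stretch. At the far end a proliferating peak of 4009 bp, from 21967596 to 21971604, overlapped 3 senescent peaks of 1190, 195 and 468 bp. The proliferating peak and the senescent peak of 1190 bp also overlapped the lncRNA gene CDKN2A-AS1, so they are shared with that gene.

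CDKN2B (gene ID 1030, chromosome 9, 22002903 to 22009313, minus strand), which encodes p15, an inhibitor induced by TGF-beta, had 21.3% of its locus covered in senescent, 3.48% in quiescent and 33% in proliferating cells. The senescent peak over its start was 795 bp wide, with 396 bp before the start and 398 bp after it, and the proliferating one 1418 bp, with 611 bp before and 806 bp after it. The proliferating peak was the highest placed of all peaks over the 7 genes: 1.55% of its list matched or passed its score of 75. For the senescent peak, with a score of 18, the share was 57.0%, and its list had a median of 24.8% for peaks over a start. The quiescent peak of 293 bp began 88 bp after the start and had the lowest score of its list, 10. A second site inside the gene, of 994 bp in senescent and 1105 bp in proliferating cells, was absent from the quiescent list. The whole of CDKN2B lies within CDKN2B-AS1, so all its peaks are shared with that gene.

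CDKN2C (gene ID 1031, chromosome 1, 50960745 to 50974634, plus strand), which encodes p18, had 15% of its locus covered in senescent, 4.39% in quiescent and 26.4% in proliferating cells. Start 1 carried no peak in any list, and the peaks nearest to it, 530 bp in senescent and 1334 bp in proliferating cells, overlapped the neighbouring gene FAF1, which runs the other way. Starts 2 and 3, at 50968706 and 50970245, lay under a single proliferating peak of 3373 bp from 50967775 to 50971147. In senescent cells they lay under separate peaks of 1471 and 742 bp. The senescent peak at start 2, with a score of 41, was the highest placed senescent peak over the 7 genes, with 2.63% of the list at or above it. Start 3 was the only one of the 10 start positions under a quiescent peak, of 698 bp from 50969861 to 50970558. That peak and the senescent peak at start 3 overlapped by at least 50% of each. Of the quiescent list 15.6% matched or passed its score of 30, where the median for quiescent peaks over a start was 46.1%. Start 3 had a GC content of 49.3%, and 4.09% of the 3639 starts with 45% to 55% GC lay under a quiescent peak.

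CDKN2D (gene ID 1032, chromosome 19, 10566460 to 10568979, minus strand), which encodes p19 of the INK4 family and is the shortest of the 7 genes, had 86.0% of its locus covered in senescent, 3.92% in quiescent and 91.1% in proliferating cells. A peak of about the same extent lay over its start in senescent and proliferating cells, 2079 bp in senescent and 1992 bp in proliferating cells. The share of the list at or above the score was 36.2% for the senescent and 4.38% for the proliferating peak. A second peak, of 2529 bp in senescent and 2447 bp in proliferating cells, covered the far end of the gene and reached into the neighbouring gene KRI1. The quiescent peak, 177 bp from 10568663 to 10568839, began 140 bp after the start, and 12% of its list matched or passed its score of 32.

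CDKN3 (gene ID 1033, chromosome 14, 54397007 to 54420218, plus strand), the phosphatase gene, had a single peak over its start in senescent and in proliferating cells and none in quiescent cells. The peak was 1431 bp wide in senescent cells, from 54396522 to 54397952, and 1410 bp in proliferating cells, from 54396488 to 54397897. The cover was 5.68% in senescent and 5.59% in proliferating cells, and the senescent peak was lost where only peaks reaching the median score of their list were kept. Of the senescent list 63.1% matched or passed the peak's score of 17, beside a median of 24.8% for peaks over a start in that list. Of the proliferating list 3.76% matched or passed its score of 64, beside a median of 11.4% in that list. The rest of its 23212 bp carried no peak in any list.

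**Figure D3:**
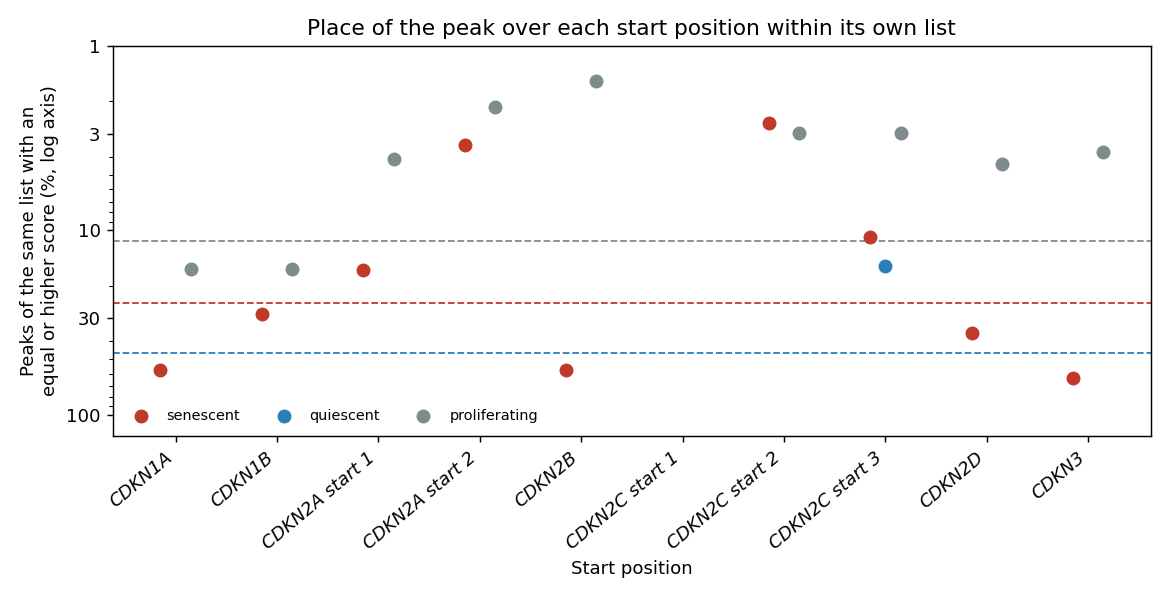
For each start position, the percentage of peaks in the same list with a score equal to or above that of the peak over the start, on a log axis with high places at the top; no point means no peak over the start. Dashed lines are the medians over all protein-coding starts under a peak, 24.8% in senescent, 46.1% in quiescent and 11.4% in proliferating cells; the senescent points run from 2.63% to 63.1% and the proliferating ones from 1.55% to 16.2%.

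Peaks of senescent and quiescent cells mostly lay inside those of proliferating cells. Of the 19 senescent peaks over the 7 genes, 18 (94.7%; 95% Wilson interval 75.4 to 99.1) overlapped a proliferating peak by at least 1 bp, where 65.7% of the whole senescent list did. All 5 quiescent peaks overlapped both a senescent and a proliferating peak, as did 94.1% and 99.4% of the whole quiescent list. Of the 23 proliferating peaks, 13 (56.5%; 36.8 to 74.4) overlapped a senescent one, beside 49.9% of the whole list. These intervals cover counting error only, and peaks of 1 gene are not independent. The whole lists were not matched to these loci for position or cover. Mean proliferating cover was 42.6% over the 7 genes and 12.6% over all protein-coding genes. A higher share of overlaps is therefore not shown to be particular to these genes. The 13 proliferating peaks with a senescent partner had scores of 24 to 75 and widths of 1105 to 5061 bp, and 8 of them lay over a start. The 10 without one had scores of 13 to 21 and widths of 207 to 763 bp, and none lay over a start. In the whole proliferating list 72.0% of peaks with a score of at least 24 had a senescent partner, and 30.6% of those with a score of at most 21.

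The far ends of the genes carried fewer peaks. Within 1000 bp of the end away from the start, a peak was present in 2 of the 7 genes in senescent cells (CDKN2A and CDKN2D), in none in quiescent cells and in 3 in proliferating cells (CDKN1A in addition). Over 15812 protein-coding genes with a known start the shares were 21.0% in senescent, 2.97% in quiescent and 25.1% in proliferating cells. CDKN1A was thus the 1 gene with far-end cover, 38.1% of that window, in proliferating cells alone. This cover came from the peak of 763 bp, whose score of 18 was matched or passed by 66.1% of the proliferating list. That score is below the list's median of 22, so the peak is lost where only peaks reaching the median are kept.

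In quiescent cells the cover of all 7 genes was lower than in proliferating cells by at least 2-fold, as it was for 99.1% of all covered genes, and nothing about these genes can be read from that count. Cover was at least 2-fold higher in senescent than in quiescent cells for 7 of 7, beside 94.3% of all. With equal numbers of peaks, the 9736 highest of each list, it was 2-fold higher for 2 (CDKN2A and CDKN2C) and 2-fold lower for 2, and the other 3 genes had no peak in either list; all covered genes then had 48.5% higher and 36.9% lower. The turned genes were CDKN2B, with no senescent cover and 3.48% in quiescent cells, and CDKN2D, with none and 3.92%. The order of the loci by cover was CDKN2D, CDKN1A, CDKN2B, CDKN1B, CDKN2A, CDKN2C and CDKN3 in senescent cells. In quiescent cells it was CDKN2C, CDKN2D, CDKN2B and CDKN2A, with the others at 0. In proliferating cells it was CDKN2D, CDKN1A, CDKN1B, CDKN2A, CDKN2B, CDKN2C and CDKN3. CDKN2D was first and CDKN3 last in both full orders; with 1 library per state the spread behind neighbouring places is unknown.

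The kinases and regulators that the inhibitors work with were counted in the same way, together with CDKN1C, another inhibitor gene. Of these 26 genes of the pathway, 13 were at least 2-fold lower in senescent than in proliferating cells, none was 2-fold higher and 13 were neither. Of all covered genes 35.8% were lower and 5.12% higher by 2-fold. The numbers were 7 lower and 1 higher with the proliferating list cut by score to the bases covered in senescent cells, beside 19.7% of all covered genes lower. The share of all genes higher was not counted in that setting. Their median cover was 4.81% in senescent, 0.0% in quiescent and 12.8% in proliferating cells, above the 3.16% in senescent and 5.83% in proliferating cells of all protein-coding genes; these medians are not matched on gene length. Quiescent cover was present in 12 of the 26, beside 34.2% of all protein-coding genes, again not matched on gene length. Of the 11 cyclin and kinase genes 4 were 2-fold lower, close to the 35.8% of all. CDK2, the kinase held by p21 and p27, showed the largest difference in percentage points, with 42.4% covered in senescent, 11.9% in quiescent and 82.2% in proliferating cells. Among these genes CDK4, the target of the INK4 proteins, was the only one with more cover in senescent cells, 24.2% in senescent against 23.1% in proliferating cells. CCND1, which encodes cyclin D1, had 34.8% in senescent, 11.0% in quiescent and 73.2% in proliferating cells. CCNE1, the cyclin E1 gene, had no senescent or quiescent peak and 8.0% in proliferating cells.

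Among 6 genes of the retinoblastoma and E2F families 3 were 2-fold lower in senescent cells, beside the 35.8% of all covered genes, and E2F1 showed the largest difference, with 17.1% in senescent cells, none in quiescent cells and 32.2% in proliferating cells. Of 8 regulators of the inhibitors 6 were 2-fold lower in senescent cells, beside the same 35.8%. The largest difference was that of CBX7, a Polycomb gene that represses the CDKN2A locus, with 14.5% in senescent cells, none in quiescent cells and 33.4% in proliferating cells. BMI1, another Polycomb repressor of p16, had 4.28% in senescent and 17.6% in proliferating cells. CKS1B, whose product helps to degrade p27, had 36.2% in senescent and 36.9% in proliferating cells. CDKN1C, the imprinted gene of p57 and the third member of the CIP and KIP family, had 49.6% in senescent, 6.08% in quiescent and 64.6% in proliferating cells.

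**Figure D4:**
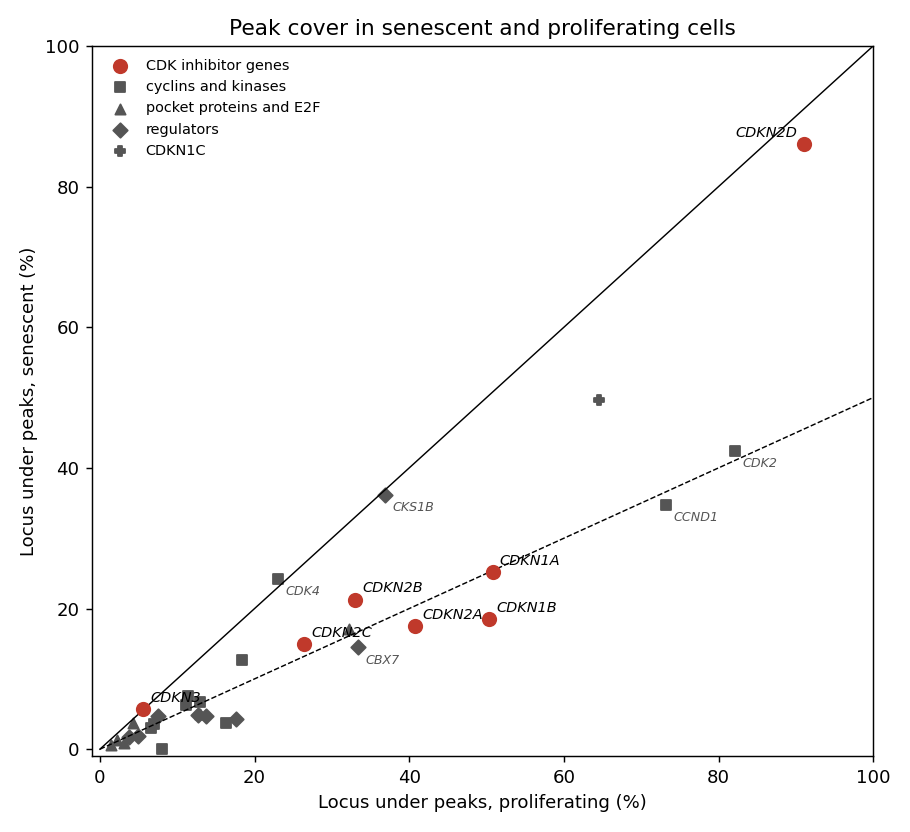
Percentage of the locus under peaks in senescent cells, on the vertical axis, against proliferating cells, on the horizontal axis, for the 7 CDK inhibitor genes (red) and 26 pathway genes (grey, shape by group). The solid line marks equal cover and the dashed line senescent cover at 0.5 of proliferating cover; CDKN3 lies on the solid line with values of 5.68% and 5.59%, and CDKN1B lies lowest relative to it among the red points.

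For each inhibitor gene, the 2 protein-coding genes of like length most alike in cover were picked from 1355 to 2543 candidates. Their closeness follows from this choice and is not a result about the inhibitor genes. The likeness was the sum of the absolute differences in cover over the 3 libraries, in percentage points. SIGIRR (25.1% in senescent, 0.0% in quiescent and 49.7% in proliferating cells) was nearest to CDKN1A at 1.17 points. KISS1R lay nearest to CDKN1B at 1.26 points and MICALL2 to CDKN2A at 2.58 points. CHRAC1 lay nearest to CDKN2B, with 21.4% in senescent, 4.29% in quiescent and 32.7% in proliferating cells. ZNF584 lay nearest to CDKN2C at 1.97, ADIRF to CDKN2D at 7.85 and ACP7 to CDKN3 at 0.39 points. The second nearest were PGF, GJD3, MYO1C, EIF3G, OAZ2, SMIM29 and MR1, in the same order of inhibitor genes, at 0.48 to 9.19 points.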

How the data were processed

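MapR libraries of 6 samples are in the series; the 3 RH-MNase peak lists were used, and the 3 libraries made with GST-MNase, the background enzyme, were not analysed here. MACS2 2.2.7.1, Bowtie2 2.4.5, FastQC 0.11.9 and GRCh38 are named, per the submitters' processing notes; the sources used here do not give the settings, the control library or any filter. The deposited score of each peak is a whole number of at least 10 with no stated scale. Each list comes from 1 library of unknown read depth, and broader or more numerous peaks can follow from depth, which was not tested.

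Genes, strands and start positions came from RefSeq tables of GRCh38.p14; a gene may have several starts. Cover was counted over merged peaks with Python 3.11.15, numpy 2.4.6 and pandas 2.3.3, checked on simulated data. With 1 library per state no p-value was computed; a call means a 2-fold ratio of cover among genes covered in either list. The genes, lists and rules were chosen with earlier results of these data known. Named were all 7 genes, those sharing their peaks, the extremes of each pathway group and the nearest 2 by cover; CCND1, CCNE1, BMI1 and CKS1B were chosen after their values were seen. Alternatives varied peak selection, flanks and overlap.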

Additional observations from a re-analysis of the deposited data

How the results depend on the processing

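The number of genes with lower senescent than proliferating cover stayed within 1.5 times of the 6 reported in each setting tried, but the number at least 2-fold lower did not. It was 5 where only peaks reaching their list's median score were kept, with CDKN2B and CDKN3 added, and 1, CDKN1B alone, where the proliferating list was shortened to the 40460 highest peaks, the covered length of the senescent list; all covered genes then had 44.8% and 19.7%, against 35.8% as reported. It was 2 without flanks and 2 with equal numbers of senescent and proliferating peaks, where all covered genes had 38.5% and 32.2%. In that shortened setting 7 pathway genes were 2-fold lower and 1 higher, and the share of all genes higher was not counted. With the 9736 highest peaks of each list, 2 genes kept a senescent peak and 0 a senescent gene-end peak, 4 a proliferating gene-end peak, and the median cover was 0.0% in senescent and 16.5% in proliferating cells; 3 of the 10 starts then lay under a senescent peak. In that setting senescent cover was 2-fold higher than quiescent cover for 2 genes and 2-fold lower for 2, where 7 were higher and 0 lower as reported. With peaks reaching the median score only, 2 genes had a quiescent peak and 1 a quiescent gene-end peak, and the median quiescent cover was 0.0%. The sign of the senescent minus proliferating cover turned for CDKN3 in that setting, to -5.59 percentage points, and for CDKN2D with flanks of 3000 bp, to 1.98 points. With an overlap of 50% of each peak required, 31.6% of senescent peaks had a proliferating and 26.1% of proliferating peaks a senescent partner, and of quiescent peaks 0.0% had a proliferating and 20.0% a senescent one; with peaks reaching the median score only, 76.9% of proliferating peaks had a senescent partner. For the counts of peaks, gene-end peaks, starts and overlaps in these settings, the shares over all genes or whole lists were not counted. These changes therefore cannot be read as particular to the 7 genes. The cause was not tested. Leaving out peaks over 20000 bp changed no value past these limits. No paired analysis was possible because each state has 1 library. The alternatives for starts, pathway genes and the senescent with quiescent comparison were chosen after seeing the data. Read depth, which limits how many weak peaks a list can hold, is unknown.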
